A study of Homo sapiens with 30 samples.

Results

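The genes described are the ZNF genes of chromosome 19: every gene of the PRO-Seq table whose symbol is ZNF, a number and at most 1 further letter, and whose transcript lies on that chromosome. There are 243 of them among 20367 gene symbols, against 274 ZNF genes by the same rule on the other chromosomes and 1183 further genes on chromosome 19. PRO-Seq, a nuclear run-on assay that maps engaged RNA polymerases, MYC ChIP-Seq and ATAC-Seq, which marks open chromatin, were made in G401, a malignant rhabdoid tumour (MRT) cell line that lacks the SWI/SNF subunit SNF5 (encoded by SMARCB1). All cells carried a lentiviral TET-inducible construct, were selected with G418 and were induced for 24 h with doxycycline at 1 μg/ml, and they differed in whether the construct encoded EGFP (the control), OmoMYC (a dominant-negative MYC mutant, labelled OMOMYC) or SNF5. There were 3 PRO-Seq, 3 ATAC-Seq and 2 MYC ChIP-Seq samples per construct, all from this 1 line, and the labels do not say whether replicates were separate transductions, so p-values measure the spread between these samples.

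Zinc finger proteins of the C2H2 class bind DNA through tandem fingers, each of which contacts a few base pairs. Many of those on chromosome 19 also carry a KRAB box, which recruits the co-repressor TRIM28 and, through it, the histone methyltransferase SETDB1 and HP1 proteins that build silent chromatin. The family grew by tandem duplication, so its genes stand in runs of close relatives, and many of its proteins silence transposable elements. A KRAB box was matched in 177 of the 230 members with a coding transcript (77.0%), against 85 of 248 ZNF genes elsewhere (34.3%), and members held a median of 12.5 matched fingers (range 1 to 39). Where neighbouring starts more than 1 Mb apart divide the members, 16 groups result, numbered from the short arm end. The groups named most are group 5, with 34 members whose starts lie between positions 19779663 and 24269976 of hg19, group 9 with 26, group 15 with 40 and group 16 with 60, whose starts lie between 55987699 and 58987795.

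Of the 7 members whose gene body reads rose with SNF5, 6 lay in group 5, and the promoters of 5 of these 6 are listed in RefSeq. They are shown so that the likeness of these neighbouring promoters can be read. Each is 300 bases, from 250 before to 50 after the RefSeq start, on the gene's strand in GRCh38.p14, and capitals mark GGGCGG (the GC box), the box CCAAT and the ETS core CGGAAG on either strand, which may overlap. ZNF714 is at chr19:21081953-21082252, ZNF431 at chr19:21141790-21142089 and ZNF254 at chr19:24086937-24087236, all on the plus strand, and ZNF708 at chr19:21329361-21329660 and ZNF91 at chr19:23395422-23395721 are on the minus strand.
ZNF714: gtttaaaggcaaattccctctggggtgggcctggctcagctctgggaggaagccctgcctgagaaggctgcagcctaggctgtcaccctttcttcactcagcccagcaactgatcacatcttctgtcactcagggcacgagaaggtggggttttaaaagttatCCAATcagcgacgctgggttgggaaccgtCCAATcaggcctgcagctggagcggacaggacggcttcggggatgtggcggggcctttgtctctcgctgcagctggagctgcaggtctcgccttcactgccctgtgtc
ZNF431: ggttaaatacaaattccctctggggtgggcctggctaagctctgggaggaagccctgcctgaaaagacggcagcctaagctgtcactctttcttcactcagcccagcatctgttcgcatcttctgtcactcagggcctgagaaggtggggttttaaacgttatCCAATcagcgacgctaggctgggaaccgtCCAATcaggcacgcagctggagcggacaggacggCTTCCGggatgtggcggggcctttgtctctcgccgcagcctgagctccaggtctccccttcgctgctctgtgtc
ZNF254: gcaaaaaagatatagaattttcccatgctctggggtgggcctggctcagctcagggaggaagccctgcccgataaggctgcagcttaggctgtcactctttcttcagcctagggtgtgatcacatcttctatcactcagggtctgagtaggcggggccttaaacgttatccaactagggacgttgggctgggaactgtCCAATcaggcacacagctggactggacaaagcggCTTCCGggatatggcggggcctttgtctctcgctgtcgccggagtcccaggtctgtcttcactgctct
ZNF708: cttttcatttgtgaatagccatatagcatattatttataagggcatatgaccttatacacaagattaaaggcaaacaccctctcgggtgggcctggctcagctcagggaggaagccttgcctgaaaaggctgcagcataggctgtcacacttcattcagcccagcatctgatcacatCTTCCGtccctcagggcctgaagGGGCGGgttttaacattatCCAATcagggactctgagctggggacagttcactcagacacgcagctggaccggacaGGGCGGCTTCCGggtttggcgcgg
ZNF91: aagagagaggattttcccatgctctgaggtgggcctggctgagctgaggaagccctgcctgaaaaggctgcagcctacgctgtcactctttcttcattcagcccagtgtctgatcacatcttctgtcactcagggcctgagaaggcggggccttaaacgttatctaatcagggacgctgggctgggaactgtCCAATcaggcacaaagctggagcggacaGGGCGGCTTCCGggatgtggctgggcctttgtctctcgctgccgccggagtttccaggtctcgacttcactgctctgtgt

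Aligned end to end with free end gaps, each of these promoters matched the other 4 at a median of 82.3% of its bases (range of the medians 66.7% to 85.7%, the lowest for ZNF708). The 12 other tested members of group 5 with a listed promoter matched the same 5 at a median of 80.8%, and members of other groups at 54.3%. The likeness is therefore shared by members of group 5 that rose and most of those that did not. Of the members of group 5 that fell, ZNF492 matched the 5 at a median of 81.0%, but ZNF101 at 57.0%. The risers were chosen by their values, so that no test applies.

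Among the 206 members matched to a RefSeq promoter, CGGAAG, the core of sites bound by ETS factors, occurred in 56.8%, against 25.9% of 13295 promoters of genes in the table. CCAAT was found in 52.4% against 36.2%, GCCATNTT, the core recognised by YY1, in 15% against 8.24%, and GGGCGG in 67.0% against 60.7%. CACGTG, the E-box bound by MYC and MAX, occurred in 4.37% of member promoters and 9.02% of all promoters. The cyclic AMP response element TGACGTCA (3.4% against 2.65%) and the NRF1 motif (1.94% against 1.8%) were rare in both. Members that fell with SNF5 and the other tested members held CGGAAG in 48.4% and 58.1% and CACGTG in 3.23% and 5.16%, which are descriptions of the letters and not of bound factors.

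MYC peaks were called near few member starts. A peak summit lay within 1 kb of the start in 6 members in EGFP replicate 1 (2.47%, exact 95% interval 0.911 to 5.3, counting error only) and in 32 members in EGFP replicate 2 (13.2%, 9.18 to 18.1), against 23.1% of all genes in the longer list of EGFP replicate 2. The 6 members of replicate 1 were also in replicate 2, so 6 had a summit in both, where the share of all genes was 4.31%. In EGFP replicate 2 the share was 29.9% for ZNF genes of other chromosomes and 24.8% for the other genes of chromosome 19.

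The 6 members with a summit in both EGFP samples were ZNF121, ZNF507, ZNF146, ZNF565, ZNF628 and ZNF581. ZNF146 and ZNF565 are divergent neighbours that share 1 peak. The fold over local background in EGFP replicates 1 and 2 was 9.71 and 10.5 at ZNF628, 7.65 and 9.47 at ZNF146 and ZNF565, 4.80 and 8.41 at ZNF121, 4.64 and 5.84 at ZNF507, and 5.59 and 3.32 at ZNF581. The sequence around the summit is given for 3 of these peaks, the highest 2 and the peak closest to its start, as 61 bases of the hg19 (GRCh37) plus strand centred on the summit of EGFP replicate 2, with the E-box CACGTG in capitals: chr19:55987580-55987640 upstream of ZNF628, chr19:36706058-36706118 between ZNF565 and ZNF146, and chr19:9695178-9695238 at the start of ZNF121.
ZNF628: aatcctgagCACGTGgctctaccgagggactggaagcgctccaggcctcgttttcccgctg
ZNF146: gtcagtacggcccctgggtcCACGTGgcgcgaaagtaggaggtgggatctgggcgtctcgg
ZNF121: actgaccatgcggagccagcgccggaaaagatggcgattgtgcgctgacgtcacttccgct

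The first pair hold an E-box, 21 and 10 bases to the left of the summit, and the window of ZNF121 holds none. Within 100 bp of the summit, 5 of 31 member peaks of EGFP replicate 2 had CACGTG (16.1%), against 58 of 250 peaks at other chromosome 19 genes (23.2%). With SNF5, 0 of 243 members had a summit in either sample (upper exact limit 1.51%), in lists of 137 and 27 peaks in all. The share of all genes was also small, 0.614% and 0.0786% in SNF5 replicates 1 and 2, and lies below that limit. The OmoMYC lists hold 1 placeholder line each in place of peaks. The lists hold no read counts, and how far the shorter lists set these zeros was not tested.

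The PRO-Seq libraries held 28388012 to 46859674 reads on gene bodies and 517821 to 3381189 in promoter-proximal windows, the 50 bp with most reads around each start, where the 3 samples numbered 1 were lowest (517821 to 671718). SMARCB1 had 11, 11 and 10777 gene body reads over the EGFP, OmoMYC and SNF5 samples. VIM, a mesenchymal gene, ran from 23.1 to 54.1 gene body reads per kb per 1000000 gene body reads of the sample (the level used throughout), PTPRC, CD3E, PECAM1 and ALB, markers of blood, endothelial and liver cells, had 0 to 12 reads per construct, and EPCAM, an epithelial gene, had levels of 0.0232 to 0.0733. Samples of the same replicate number deviated together, so the number was a block in every fit.

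For the ZNF genes, the samples numbered 3 stood apart. In 25 of the tested members (11.7%), the level in all 3 samples numbered 3 was less than 1/2 of the lowest level in the 6 samples numbered 1 and 2, whichever construct they carried, against 391 of 15060 genes tested (2.6%), 7 of 231 ZNF genes elsewhere (3.03%) and 11 of 922 other chromosome 19 genes (1.19%). The reverse held for 3 members (1.41%), ZNF433, ZNF836 and ZNF878, and for 1.95% of all genes. The 25 were lower by 3.62- to 31.8-fold on means (median 8.48-fold). ZNF841 had 0.734 to 1.03 in the samples numbered 1 and 2 and 0.0318 to 0.0380 in those numbered 3. ZNF829 had 0.0919 to 0.141 and 0.00158 to 0.00640.

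The lower genes were spread over 7 groups, with 7 of 37 tested members in group 15, 5 of 20 in group 12, 4 of 20 in group 5, 4 of 26 in group 9 and 2 of 55 in group 16. A KRAB box was matched in 22 of the 25. Promoter-proximal reads, which the choice did not use, were fewer over the 3 samples numbered 3 than over the 3 numbered 2 in 25 of 25, for example 2980 against 136 at ZNF493 and 963 against 33 at ZNF253. These are unscaled counts, from libraries with 9554165 promoter-proximal reads in all for number 2 and 6797723 for number 3. Per promoter-proximal read of the library, 25 of 25 were still lower, by 1.22- to 29.2-fold (median 6.09-fold). These reads come from the same libraries as the choice. The samples numbered 1 are not compared here, and the share of all genes lower in this way is not given. None of the 25 genes had passed the test with SNF5 or OmoMYC. In a bulk assay, loss of transcription in some cells and a lower rate in all of them cannot be told apart. The labels give the same passage range for every sample and no day or culture, and the pattern was chosen after the values were seen.

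**Figure D1:**
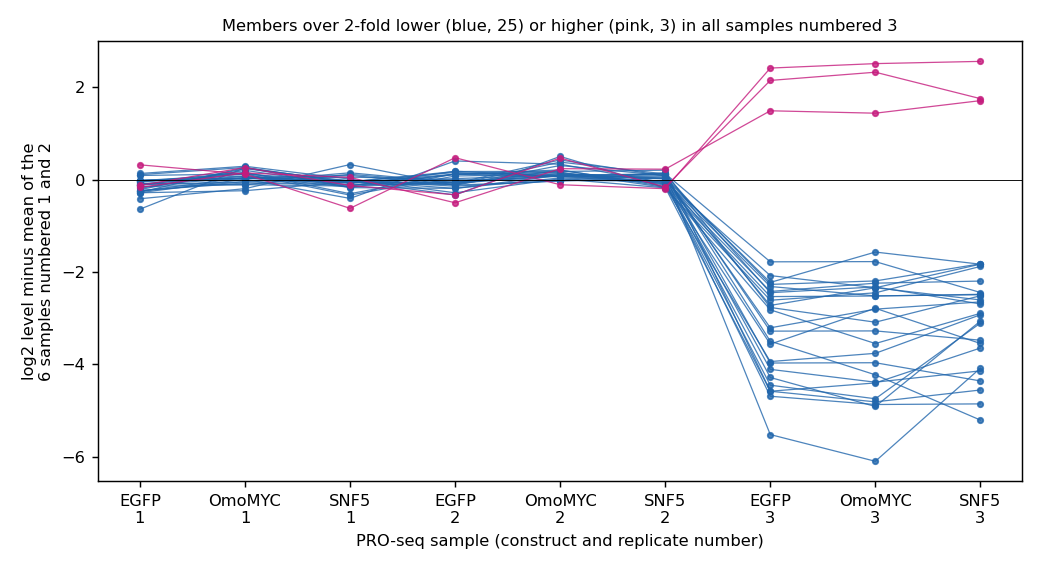
Gene body level of the 28 members that differed more than 2-fold between the samples numbered 3 and all others, as log2 of the level minus the mean log2 of the 6 samples numbered 1 and 2 (vertical axis), over the 9 PRO-Seq samples (horizontal axis). The 25 blue lines drop in all 3 samples numbered 3, whether EGFP, OmoMYC or SNF5, and the 3 pink lines rise.

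Most members were transcribed. A mean of at least 10 gene body reads per sample was reached by all but 30 of the 243. Of these 30, 7 were listed at 0 in all 9 samples (ZNF486, ZNF826P, ZNF737, ZNF626, ZNF85, ZNF100 and ZNF676, each in group 5), and 23 lay below the filter. The median EGFP level of tested members was 1.32, that of all genes tested 1.21, of ZNF genes elsewhere 1.84 and of other chromosome 19 genes 1.73. The highest levels belonged to short genes without a KRAB match: ZNF580 (20.6 to 30.6 over the EGFP samples), ZNF581 (12.2 to 19), ZNF579 (4.77 to 7.77) and ZNF574 (4.25 to 6.87), and to ZNF114 (5.26 to 6.83), which has one. ZNF580 and ZNF581 follow each other on the plus strand 150 bp apart, so reads past the end of the first can fall in the second. The lowest tested were ZNF578, ZNF793 and ZNF556, each at 0.0378 or less in EGFP.

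Reintroduction of SNF5 raised a smaller share of members than of all genes and lowered a similar share. In gene bodies, 7 members rose (3.29%) where 17.6% of all genes did, and 35 fell (16.4%) where 16.5% of all genes did, by edgeR's quasi-likelihood test with Benjamini-Hochberg adjustment over 15060 genes at 0.05. The median log2 fold change was -0.07 for members (quartiles -0.23 and 0.05) and -0.03 for all genes. ZNF genes of other chromosomes had 11 rises and 55 falls of 231 (4.76% and 23.8%, median -0.09). Other chromosome 19 genes had 24 and 319 of 922 (2.6% and 34.6%, median -0.23), so rises were few in these lists too. The falls were small, with log2 fold changes from -0.86 to -0.19, and 34 of the 35 were lower than EGFP in all 3 pairs. All gene body reads of the 243 members together made up 0.631%, 0.627% and 0.549% of the EGFP samples and 0.595%, 0.576% and 0.526% of the SNF5 samples of the same numbers.

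The number of calls changed with the pairing and with the samples in the fit. Without the block, 0 members passed, and 218 and 7 of all genes. Leaving out number 1 gave 0 rises and 5 falls (1208 and 416 over all genes), and leaving out number 2 gave 0 and 1 (1137 and 316). Leaving out number 3 gave 11 and 71, where 3832 and 4634 of 15059 genes in all rose and fell. The median of members stayed between -0.13 and -0.04 under these 3 settings.

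The 10 largest falls in all 3 pairs were at ZNF492, ZNF576, ZNF333, ZNF584, ZNF579, ZNF581, ZNF497, ZNF551, ZNF566 and ZNF524. ZNF492 had levels of 0.0763, 0.148 and 0.311 in EGFP samples 1 to 3 and 0.0679, 0.0622 and 0.141 with SNF5, so the groups overlapped although each pair fell, and the log2 fold change was -0.86 ± 0.28 (SE, edgeR adjusted p = 0.042). Of its gene body, 42.2% consists of 31-base stretches found elsewhere on chromosome 19 in the reference, which limits how well reads can be placed. ZNF576 had 2.41, 3.17 and 2.75 in EGFP, and 1.87, 1.64 and 1.76 with SNF5. Its groups were apart, with a log2 fold change of -0.65 ± 0.15 (SE, edgeR adjusted p = 0.0096).

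ZNF333, which has a KRAB match, had 0.718, 0.554 and 0.854 in EGFP and 0.408, 0.337 and 0.648 with SNF5, a fall in every pair with overlap between groups (log2 fold change -0.64, edgeR adjusted p = 0.0035). ZNF584 had 2.36, 2.10 and 2.43 in EGFP and 1.83, 1.54 and 1.3 with SNF5, with no overlap (-0.56, edgeR adjusted p = 0.0092). ZNF551 had 4.76, 5.96 and 5.04 against 3.56, 4.07 and 3.57, again apart (-0.49, edgeR adjusted p = 0.0050). The other 5 had log2 fold changes between -0.52 and -0.44. ZNF579, ZNF497, ZNF581 and ZNF524 of these lie in group 16, and ZNF566 in group 9.

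The 7 rises were smaller, from 0.22 to 0.36 on the log2 scale, and present in all 3 pairs of each gene. ZNF431, encoding a KRAB protein with 12 matched fingers, had 1.27, 1.37 and 1.45 in EGFP and 1.84, 1.94 and 1.46 with SNF5 (log2 fold change 0.36 ± 0.09 SE, edgeR adjusted p = 0.018), so that nearly all of the difference came from numbers 1 and 2. ZNF708 had 1.24, 1.42 and 1.26 against 1.57, 1.72 and 1.41, with slight overlap (0.26, edgeR adjusted p = 0.010). ZNF91, a KRAB protein with 32 matched fingers known to silence SVA retrotransposons, had 2.08, 2.08 and 1.96 against 2.68, 2.49 and 2.08 (0.24, edgeR adjusted p = 0.016), where the third SNF5 sample equalled the highest EGFP samples. ZNF714, ZNF738 and ZNF254, also of group 5, rose by 0.26, 0.26 and 0.23.

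ZNF83, in group 15, was the only riser outside group 5. It had 1.71, 1.39 and 1.66 in EGFP and 1.94, 1.62 and 1.97 with SNF5 (0.22, edgeR adjusted p = 0.012). In group 5, the 7 genes ZNF430, ZNF714, ZNF431, ZNF708, ZNF738, ZNF493 and ZNF429 are consecutive tested members with log2 fold changes above 0, between 0.11 and 0.36, and 4 of these passed the test. The stretch was picked after its values were seen.

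**Figure D2:**
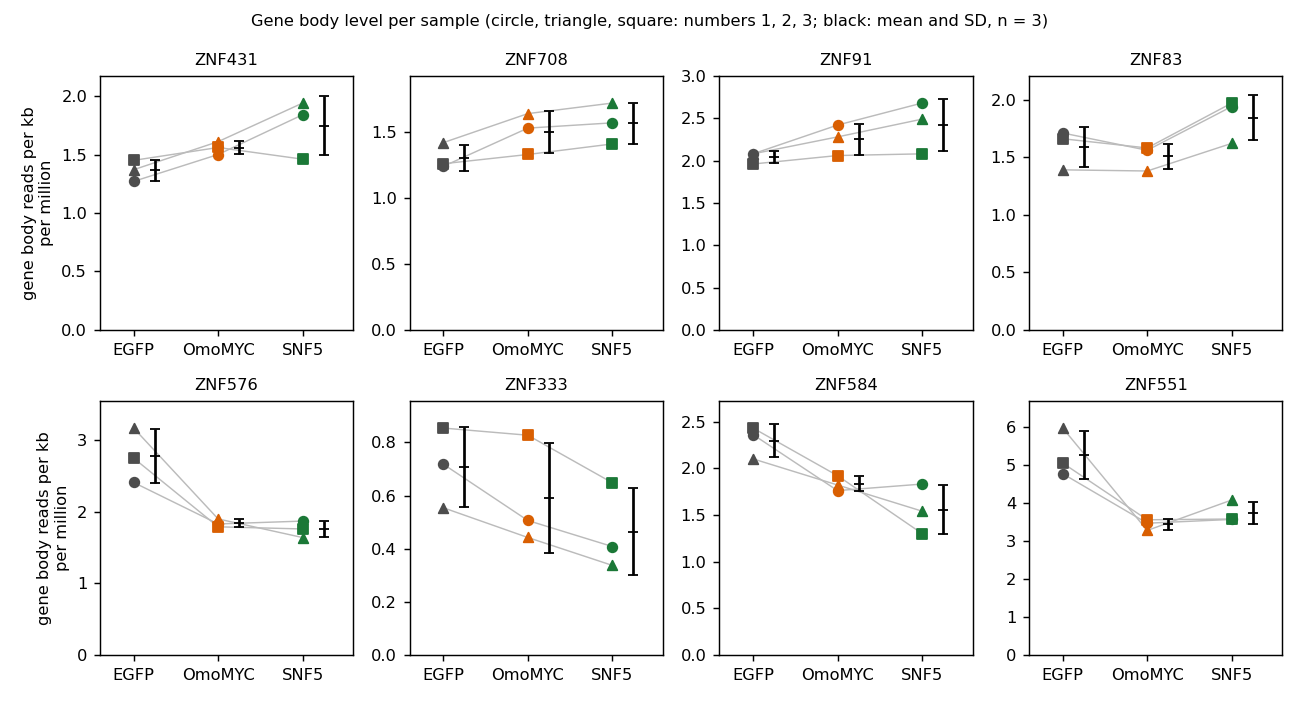
Gene body level (reads per kb per 1000000 gene body reads, vertical axis from 0) of 8 members in each EGFP, OmoMYC and SNF5 sample, with lines joining samples of the same number and black marks for the mean and SD of 3 samples. In the upper row, ZNF431, ZNF708, ZNF91 and ZNF83 are higher with SNF5 in every pair, and in the lower row ZNF576, ZNF333, ZNF584 and ZNF551 are lower.

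By position, group 5 held 6 rises and 3 falls among 20 tested members (median 0.10). Group 16 held 0 rises and 15 falls among 55 (27.3% fell, median -0.16). Falls made up 16.5% of all genes and 34.6% of other chromosome 19 genes (median -0.23). The share of falls in group 16 was thus above that of all genes but below that of its chromosome's other genes. Rises made up 17.6% of all genes and 2.6% of other chromosome 19 genes. Group 15 had 1 rise and 1 fall among 37 (median -0.04), and group 9 had 0 and 2 among 26 (median -0.08). The median of group 5 was 0.03, 0.11 and 0.18 without numbers 1, 2 and 3, with 0, 0 and 8 rises, and that of group 16 was -0.15, -0.12 and -0.22, with 4, 1 and 27 falls. Members of group 16 had a higher EGFP level (median 2.06) than those of group 5 (1.42), group 9 (0.891) and group 15 (0.842).

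**Figure D3:**
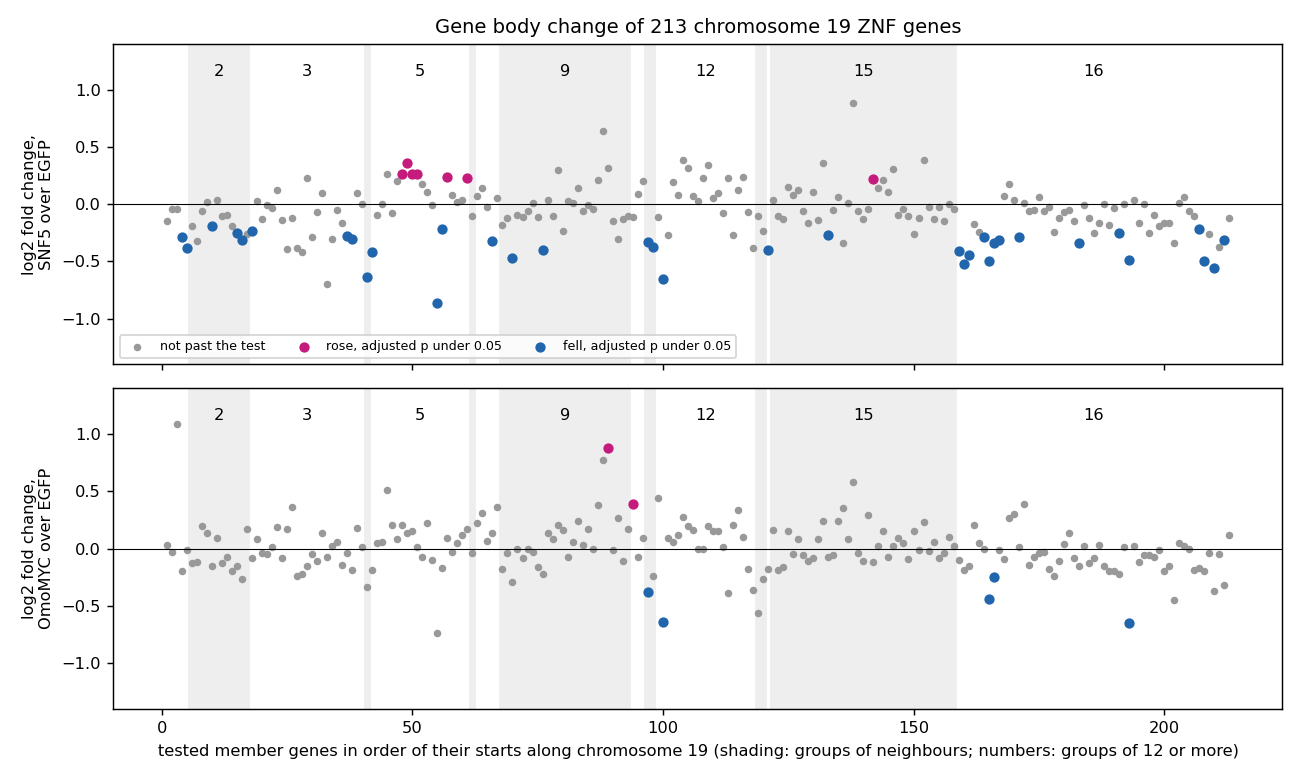
Gene body log2 fold change over EGFP (vertical axes) of the tested members in their order along chromosome 19 (horizontal axis), with SNF5 above and OmoMYC below. With SNF5, 6 of the 7 pink points (rises) stand in group 5 and 15 of the 35 blue points (falls) in group 16, while with OmoMYC 2 rose and 5 fell.

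Falls were more frequent among members with a MYC summit, without a KRAB match, or at a high level, and these features went together. Of the 32 members with a MYC summit in EGFP replicate 2, 15 fell with SNF5 (46.9%) and 0 rose (median -0.28). Of the 181 others, 20 fell (11%) and 7 rose (median -0.05). The same split over all genes gave 29.1% falls among 4509 with a summit and 11.1% among 10551 without, and over other chromosome 19 genes 56.5% of 283 and 24.9% of 639. The members with a summit had a median EGFP level of 2.51 against 1.10 for those without. Among tested members above the median level 28 of 106 fell and 6 rose (median -0.13). At or below it 7 of 107 fell and 1 rose (median 0.0). Calls in both directions were thus more frequent at a high level, and the part of read number in this was not tested. The part of level in the split by MYC was not tested. Without numbers 1, 2 and 3 the medians with a summit were -0.30, -0.22 and -0.24, and without one -0.03, 0.00 and -0.10.

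Members without a KRAB match fell in 17 of 49 cases (34.7%, median -0.19), and those with one in 17 of 154 (11%, median -0.04), with median EGFP levels of 2.12 and 1.17. A start open in EGFP by ATAC-Seq (a peak in at least 2 of 3 samples) was present in 72 tested members, of which 22 fell (30.6%), against 12 of 131 with a closed start (9.16%). Of the 6 members with a MYC summit in both EGFP samples, ZNF628 and ZNF581 fell (-0.41 and -0.50, edgeR adjusted p = 0.040 and 0.0073), and ZNF146, ZNF121, ZNF565 and ZNF507 had -0.18, -0.19, -0.12 and -0.10 and did not pass.

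**Figure D4:**
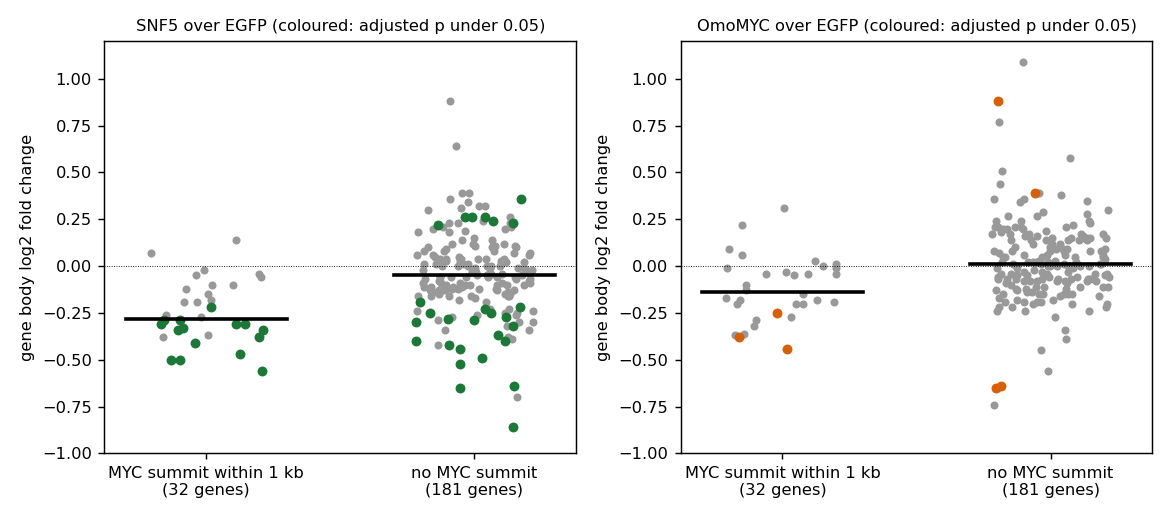
Gene body log2 fold change over EGFP (vertical axes) of the tested members with a MYC summit within 1 kb of the start in EGFP replicate 2 (32 genes) and without one (181 genes), for SNF5 (left) and OmoMYC (right). Coloured points passed the test and black bars are medians, which with SNF5 are -0.28 and -0.05 and with OmoMYC -0.14 and 0.01.

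OmoMYC moved few members. With OmoMYC, 2 rose (0.939%, against 4.1% of all genes) and 5 fell (2.35%, against 4.42%), with a median of -0.01. An unadjusted p under 0.05 by edgeR was reached by 44 of 213 members, against 4388 of 15060 genes. The falls were at ZNF551, ZNF576, ZNF581, ZNF574 and ZNF787. ZNF551 went from 4.76, 5.96 and 5.04 in EGFP to 3.46, 3.27 and 3.55 with OmoMYC, with no overlap (log2 fold change -0.65, edgeR adjusted p = 0.015). ZNF576 had 1.83, 1.90 and 1.79 with OmoMYC, below every EGFP sample (-0.64, edgeR adjusted p = 0.035). ZNF581, ZNF574 and ZNF787 changed by -0.44, -0.38 and -0.25.

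With SNF5 these 5 had -0.49, -0.65, -0.50, -0.33 and -0.34 in the order named, each past the test, but both comparisons use the same EGFP samples. The 2 rises were at ZNF540 (0.0552, 0.147 and 0.0925 in EGFP, and 0.134, 0.321 and 0.125 with OmoMYC, 0.88, edgeR adjusted p = 0.026) and ZNF546 (1.32, 1.15 and 0.992, and 1.78, 1.82 and 1.16, 0.39, edgeR adjusted p = 0.041), both with a KRAB match. With SNF5 they had 0.32 and -0.11 and did not pass. Leaving out number 1 or number 2 left 0 calls of members with OmoMYC, and 2 rises and 0 falls over all genes in each case. Leaving out number 3 gave 22 rises and 39 falls of members, where 3066 and 3657 of 15059 genes in all rose and fell.

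Compared directly, SNF5 samples were higher than OmoMYC samples at 1 member (against 11.5% of all genes), ZNF83 (log2 difference 0.34 ± 0.05 SE, edgeR adjusted p = 0.0027), and lower at 12 (5.63%, against 7.38%). ZNF83 had 1.56, 1.38 and 1.58 with OmoMYC, each below the SNF5 sample of its number. ZNF540, ZNF763, ZNF546 and ZNF30 were lowest with SNF5 relative to OmoMYC, with -0.57, -0.56, -0.50 and -0.47. ZNF30 had 1.34, 1.24 and 1.3 with OmoMYC and 0.898, 0.856 and 0.953 with SNF5, with no overlap. Without number 1 no member passed, and 704 genes in all were higher and 126 lower. Without number 3, 8 members were higher and 43 lower, and 3268 and 2937 of 15059 genes in all.

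Near the promoter, counts were lower and fewer calls were made. The promoter-proximal window passed the filter in 190 members. With SNF5, 2 rose (against 2.64% of all genes) and 3 fell (against 1.63%). With OmoMYC 0 rose (against 1.63%) and 0 fell (against 0.169%), although DESeq2 called 2 rises. Of the 190 members, 22 had an unadjusted p under 0.05 by edgeR, against 1740 of 11241 genes. Between SNF5 and OmoMYC 0 were higher (against 0.48%) and 0 lower (against 0.347%), and DESeq2 called 0. Here 24 members had an unadjusted p under 0.05 by edgeR, against 1550 of 11241 genes. On this scale, set by gene body reads, the median of all genes with OmoMYC was 0.13, and that of members 0.12. Scaled by promoter-proximal reads, both were -0.03.

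The rises with SNF5 were at ZNF468 (1.08) and ZNF878 (0.76, edgeR adjusted p = 0.041), and the falls at ZNF792 (-1.07), ZNF583 (-0.83, edgeR adjusted p = 0.044) and ZNF492 (-0.81). ZNF583 had 42, 601 and 332 reads in EGFP and 31, 269 and 240 with SNF5, and 53, 592 and 245 with OmoMYC. ZNF878 had 12, 146 and 348 reads in EGFP, 24, 243 and 607 with OmoMYC, and 26, 302 and 547 with SNF5, so it was higher in every pair with either construct. The 3 members with the smallest p with OmoMYC were ZNF878 (0.81, edgeR adjusted p = 0.051), ZNF573 (0.73) and ZNF347 (0.82). Those with the smallest p between SNF5 and OmoMYC were ZNF587 (-0.74, edgeR adjusted p = 0.089), ZNF146 (-0.75) and ZNF792 (-0.94).

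The pausing index, the ratio of promoter-proximal to gene body reads, rose with SNF5 in 4 members (against 2.02% of all genes) and fell in 2 (against 1.64%). With OmoMYC it rose in 2 (against 2.18%) and fell in 0 (against 0.0806%). An unadjusted p under 0.05 by edgeR was reached by 20 of 190 members, against 1733 of 11171 genes. DESeq2 called 0 members in either comparison. The rises with SNF5 were at ZNF878 (log2 change 1.07), ZNF497 (1.05, edgeR adjusted p = 0.012), ZNF442 (0.96) and ZNF30 (0.78), and the falls at ZNF792 (-1.10) and ZNF583 (-0.90). ZNF497 had 44, 144 and 129 promoter-proximal reads in EGFP and 59, 203 and 255 with SNF5, while its gene body level fell from 1.52, 1.62 and 1.95 to 1.33, 1.07 and 1.16. With OmoMYC the rises were at ZNF878 (1.02) and ZNF146 (0.86), and the next smallest p was at ZNF551 (0.80), which did not pass. The median over members was 0.09 with SNF5 and 0.15 with OmoMYC, against 0.01 and 0.14 for all genes.

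By ATAC-Seq, peaks were called at a smaller share of member starts than of all starts in EGFP cells and at a slightly larger share with SNF5. Of the 230 members with a GRCh38 start, 72 had a peak within 1 kb in at least 2 of 3 EGFP samples (31.3%, against 42.0% of 16619 genes), 82 with OmoMYC (35.7%, against 40.3%) and 123 with SNF5 (53.5%, against 52.4%). In the single samples, the share of members with a peak was 28.3%, 42.2% and 26.5% in EGFP, 20.9%, 46.5% and 34.3% with OmoMYC and 57.0%, 53.5% and 52.2% with SNF5. Each SNF5 sample lay above each EGFP sample (21.9 percentage points between means of 54.2% ± 2.47 and 32.3% ± 8.58, SD, n = 3, two-sided exact permutation test, p = 0.1). With 3 samples against 3, no smaller p can be reached. With OmoMYC the difference was 1.59 points (exact permutation p = 0.9).

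Over all other genes the SNF5 difference was 10.6 points. The share of members minus that of other genes went from -9.0 ± 3.85 points in EGFP to 2.31 ± 1.47 with SNF5 (exact permutation p = 0.1). The SNF5 lists were longer, with 22722 to 33596 peaks, against 9208 to 17817 in EGFP and 7260 to 23684 with OmoMYC. With the same number of peaks, the top 7260, from each sample, 35, 39 and 51 members were open with EGFP, OmoMYC and SNF5, and the SNF5 difference was 4.06 points (exact permutation p = 0.2).

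**Figure D5:**
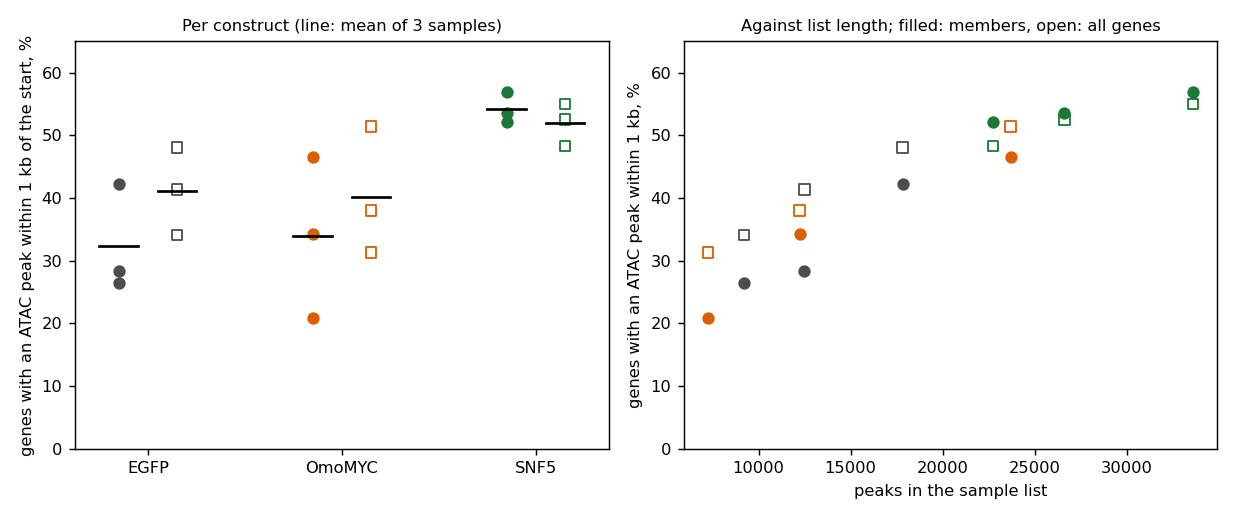
Share of genes with an ATAC peak within 1 kb of the start (vertical axes, %) in each of the 9 samples, by construct (left, lines are means of 3) and against the number of peaks in the sample's list (right), for members (filled) and all genes (open). Members lie below all genes in all EGFP and OmoMYC samples and above them in all SNF5 samples, and the share goes up with list length.

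At 15 members a peak was called in 3 of 3 SNF5 samples and 0 of 3 EGFP samples: ZNF85, ZNF726, ZNF569, ZNF45, ZNF230, ZNF432, ZNF83, ZNF611, ZNF845, ZNF264, ZNF419, ZNF530, ZNF134, ZNF551 and ZNF274. They were 11.8% of the 127 members without a peak in EGFP, against 3.6% of 8389 such genes in all, 7.41% of 81 ZNF genes elsewhere and 1.83% of 601 other chromosome 19 genes. No member lost a peak by the opposite rule. With OmoMYC ZNF230 alone met it. Among the top 7260 peaks of each sample, 0 members did with SNF5 or OmoMYC.

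Of the 14 that were tested, ZNF83 rose in the gene body with SNF5 and ZNF551 and ZNF134 fell (21.4% called, against 19.7% of all tested members and 34.1% of all genes), and the median log2 fold change was -0.02. A peak was present in all 9 samples at 33 members and in none at 94. Of the 23 members with a known start that were lower in the PRO-Seq samples numbered 3, 22 had no ATAC peak in any sample.

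Members with a known role were chosen by name. ZNF274, which brings SETDB1 to the 3′ ends of ZNF genes, gained a peak with SNF5, and its gene body level was 3.08, 2.08 and 2.28 in EGFP and 2.89, 2.01 and 2.22 with SNF5 (-0.06, not past the test). ZNF93, which silences L1 retrotransposons, had 0.0554, 0.0819 and 0.00888 in EGFP and 0.0829, 0.0913 and 0.00775 with SNF5, and its spread came from the samples numbered 3. ZNF568, whose mouse counterpart is required in the embryo, had 0.127, 0.126 and 0.0101 in EGFP and was likewise low in number 3 throughout. ZNF331, an imprinted gene, ZNF382, ZNF649 and ZNF675 had log2 fold changes of -0.04, -0.06, -0.13 and 0.08 with SNF5. ZNF224, a KRAB repressor, had 1.39, 1.82 and 1.05 in EGFP and 1.44, 1.82 and 1.58 with SNF5 (0.23, not past the test). Of these members ZNF91 alone passed, and with OmoMYC none of those tested did.

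The co-repressor genes that KRAB proteins work through were tested for 19 of 22. With SNF5, 1 rose (5.26%, against 17.6% of all genes) and 5 fell (26.3%, against 16.5%). The rise was at ATF7IP, a partner of SETDB1 (0.19). TRIM28 fell from 11.2, 7.68 and 13.9 in EGFP to 9.30, 5.83 and 10.3 with SNF5 (-0.36, edgeR adjusted p = 0.0034). The other falls were at CBX1, an HP1 protein (-0.29), HDAC1 (-0.23), DNMT1 (-0.23) and SMARCAD1 (-0.17). SETDB1 had -0.12 and did not pass in the gene body, and its promoter-proximal count fell (-1.17, edgeR adjusted p = 0.0029). With OmoMYC 0 of 19 passed in the gene body by edgeR, with 10 at an unadjusted p under 0.05, against 4388 of 15060 genes. Near promoters 2 of the 19 rose with OmoMYC (10.5%, against 1.63% of all genes) and 1 fell (5.26%, against 0.169%). The rises were at HDAC2 (0.92, edgeR adjusted p = 0.024) and DNMT1 (0.93, edgeR adjusted p = 0.048). The fall was at SETDB1 (-0.86), as with SNF5. Of 11 tested ZFP and ZSCAN genes of chromosome 19, which belong to the same class by other names, 0 rose and 1 fell with SNF5 (median -0.19).

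The genes outside the members whose gene body level ran most like the members' mean, over 9 samples after the block was removed, were PTTG1IP, LRIF1, TFCP2, CDK5RAP2 and MAX, with Pearson's r from 0.988 to 0.996. The 9 points share their libraries and scaling, and the genes were picked from all those tested.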

How the data were processed

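PRO-Seq (9 samples), MYC ChIP-Seq (6) and ATAC-Seq (9) of 1 cell line were used. PRO-Seq values are counts per transcript as deposited by the authors (NRSA, hg19): reads in the gene body, and promoter-proximal reads, taken from the fullest stretch of 50 bp that lies at most 500 bp from the start. The deposited densities (a signal per bp), and the pausing ratio columns made by the authors, were not tested, and columns of fold changes and p-values, which hold the authors' own comparisons, were not used. The peak lists were called per sample by the authors with MACS2 (ChIP-Seq: hg19, q of 0.01; ATAC-Seq: hg38, q of 0.001) and hold, as deposited, the peak height as pileup, fold enrichment over local background and −log10 p and q. A MYC summit or ATAC peak within 1 kb of the start was counted as present. GENCODE positions placed 230 members on GRCh38. No coordinates were converted.

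Counts were tested with edgeR 4.0.16 (quasi-likelihood, R 4.3.3) over all genes with a mean of at least 10, with all 9 samples and the replicate number as a block, scaled by gene body reads with RLE factors, and Benjamini-Hochberg adjusted at 0.05. The pausing index was the interaction of region and construct. Samples of the same number correlated in their deviations from group means (r of 0.753 to 0.882 in gene bodies and 0.689 to 0.849 near promoters), and other pairs at -0.668 to 0.126 and -0.606 to -0.0584, so the numbers were taken as pairs. The test was run on simulated data for SNF5 against EGFP with 200 genes changed 2-fold. All genes of a region were given 1 common dispersion (0.00959 in gene bodies, 0.0299 near promoters). It recovered 99% in gene bodies (15053 genes), 64% near promoters (11236) and 42% for the pausing index (11175). Of its calls, 4.81%, 7.25% and 3.45% were false. Gene body changes called in members were smaller than 2-fold and real genes differ in dispersion, so these rates do not describe the calls reported here. DESeq2 1.42.0 and the other alternatives are in the closing section, and SciPy 1.17.1 gave exact tests and intervals, which cover counting error only.

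Genes named are, per direction, up to 10 (gene body) or 5 (promoter-proximal, pausing) with the largest change among members past the test and changed the same way in all 3 pairs, or the 3 with the smallest p where fewer passed. Members with a MYC summit in both EGFP samples, a gained ATAC peak, the 5 highest or 3 lowest levels or a known role were added, and genes called between SNF5 and OmoMYC and those apart in number 3 were picked after their values were seen. The members and lists were chosen with earlier results of these data known. KRAB boxes and fingers were matched by pattern in the longest reading frame of GENCODE transcripts, in place of RefSeq proteins as designed, and are approximate.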

Additional observations from a re-analysis of the deposited data

How the results depend on the processing

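Alternatives were run for the counts of calls and for a part of the called genes, chosen by the naming rule, and the log2 changes of the genes so run kept their direction. Without the replicate block, set by the pairing of numbers, 0 members rose or fell in any comparison of gene bodies, promoter-proximal windows or the pausing index. The cause was not tested. With only the 2 groups compared in the fit, 3 members rose and 18 fell in gene bodies with SNF5, 8 fell with OmoMYC, 2 were higher with SNF5 than with OmoMYC, and near promoters 0 rose with SNF5 and 1 was lower with SNF5 than with OmoMYC. DESeq2 gave 9 gene body falls with OmoMYC, near promoters 1 rise and 0 falls with SNF5 and 2 rises with OmoMYC, and 0 pausing index calls. Without the count filter, 2 members were higher in SNF5 than OmoMYC gene bodies, and near promoters 5 fell with SNF5, 1 rose with OmoMYC and 1 was higher with SNF5 than OmoMYC. With a mean of at least 50 the corresponding values were 2 in gene bodies, 1 rise and 0 falls with SNF5 and 1 rise with OmoMYC near promoters, and 1 pausing index fall with SNF5. Scaled by promoter-proximal reads, 7 fell with SNF5, and 1 rose and 1 fell with OmoMYC.

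Leaving out each number in turn gave 0 to 11 gene body rises and 1 to 71 falls with SNF5, 0 to 22 and 0 to 39 with OmoMYC, and 0 to 8 and 0 to 43 between them. Near promoters it gave 1 to 3 and 0 to 10 with SNF5, 0 to 8 and 0 to 0 with OmoMYC, and 0 to 1 and 0 to 8 between them. For the pausing index it gave 0 to 4 and 0 to 3 with SNF5, and 0 to 13 and 0 to 0 with OmoMYC. The highest gene body counts came without number 3, for members and for all genes alike. A MYC summit in at least 1 EGFP sample was present at 32 members, and 6 to 32 when 1 EGFP sample was left out. Among the same number of top ATAC peaks, 35, 39 and 51 members were open with EGFP, OmoMYC and SNF5, and 0 gained a peak with OmoMYC or SNF5. The counts of gained and lost peaks and their alternatives were chosen after seeing the data. With a peak required in all 3 samples, 44 were open with OmoMYC. Leaving out 1 sample gave 48 to 62, 44 to 78 and 115 to 120 open members, 2 to 7 gained and 0 to 4 lost with OmoMYC, and 18 to 41 gained and 0 to 0 lost with SNF5. Of the values of single genes under alternatives, 252 kept their side of the threshold and 166 lost it. Of these losses, 48 came without the block, 46 without number 2, 35 without number 1 and 5 without number 3. Promoter-proximal depth, lowest in the samples numbered 1, limits what the promoter and pausing tests could detect.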
